A study of Mus musculus with 6 samples.

Results

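Matrix metalloproteinases (MMPs), the related ADAM and ADAMTS proteases, the inhibitors called TIMPs and the lysyl oxidases were examined in embryonic mouse pancreas. Genes were taken by symbol: Mmp, Adam, Adamts or Adamtsl followed by a number, Timp1 to Timp4, Lox and Loxl1 to Loxl4. The rule found 88 of the 23337 gene symbols, namely 23 MMP, 4 TIMP, 32 ADAM, 19 ADAMTS, 5 ADAMTS-like and 5 lysyl oxidase genes. The rule uses symbols and no measured value, but it was set with earlier results of these data known.

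Whole pancreas of NMRI mouse embryos at E13.5 was compared between mutants, which the labels call Prox1-nullyzygous with the alleles written Prox1 GFPCre/D, and wildtype controls. There were 3 mutant and 3 control libraries, each from its own pool of 5 to 6 organs, so the values are averages over animals and over all cell types of the organ. Less RNA per cell and fewer cells of a type cannot be told apart in such bulk samples. The labels name no batch and do not say which part of the Prox1 locus is missing.

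MMPs are zinc-dependent enzymes that cut collagens and other matrix proteins, some of them tethered to the cell surface. ADAM proteases mostly cut membrane proteins and release their outer parts, and ADAMTS proteases are secreted enzymes that process proteoglycans and procollagens. ADAMTS-like proteins lack the protease part and bind the matrix. TIMPs block these proteases, and lysyl oxidases form the cross-links that stiffen collagen and elastin. In developing pancreas the matrix lies between the branching epithelium and the mesenchyme around it.

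Total counts ran from 16060424 to 17633867 reads per mutant or control library, so that 1 CPM (the TMM-scaled unit of level used here, reads relative to the library total) stood for 15.9 to 17.5 reads. Prox1 had 1330, 1774 and 1602 reads in mutant pools 1 to 3 and 1764, 1687 and 1824 reads in control pools 1 to 3. Prox1 itself did not pass the test, with -0.17 on the log2 scale (SE 0.074, edgeR adjusted p = 0.235), and without knowing the missing part this count does not check the genotype. Xist, the RNA of the silenced X chromosome, was near absent in 2 pools, with 0.126 CPM in mutant pool 1 and 0.526 CPM in control pool 3. The other 4 pools had 2015 to 2814 CPM. The fit across all genes called 1167 of 14687 tested genes at an adjusted p under 0.05.

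The tissue label could be checked with markers. All 8 pancreatic epithelium markers, among them Pdx1, Sox9 and Cdh1, were measured well enough to test. Their summed level was 1328 to 1459 CPM in mutants and 1515 to 1845 CPM in controls, and 3 of them were called lower. The 10 mesenchyme markers summed to 7766 to 8837 CPM in mutants and 6919 to 7171 CPM in controls, with Col1a1 called higher and the other 9 not called. Neither pair of ranges overlapped. Most of the mesenchyme sum came from the collagen genes Col3a1 and Col1a1. They averaged 4173 and 2246 CPM in mutants and 3414 and 1806 CPM in controls. At an unadjusted edgeR p under 0.05, 5 mesenchyme markers were higher and 2 lower. Those lower were Twist1 (log2 -0.55) and Prrx1 (-0.18). The part of these differences in the values below was not tested.

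Of the 88 genes, 57 passed the filter on low counts and were tested. Changes were small and mostly upward: 8 genes were called higher in mutants (Loxl2, Adam22, Mmp16, Adamts8, Adamtsl1, Adamts20, Loxl1 and Adam19), 3 were called lower (Adamtsl2, Adamts16 and Adam23) and 46 were not called. The called genes made up 19.3% of the 57 members tested, against 7.95% of all 14687 genes. Calls higher were 14.0% of members and 3.67% of all genes, and calls lower were 5.26% of members and 4.28% of all genes. The groups did not overlap for 25 members (43.9%), against 26.4% of all genes tested. The median log2 fold change was 0.13 over the members and 0.00055 over all genes, and 41 members had a positive and 16 a negative value. No set test was made, and the 57 are those abundant enough to test, not the whole family. The same shares over all genes apply to the counts of families and lists below.

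**Figure D1:**
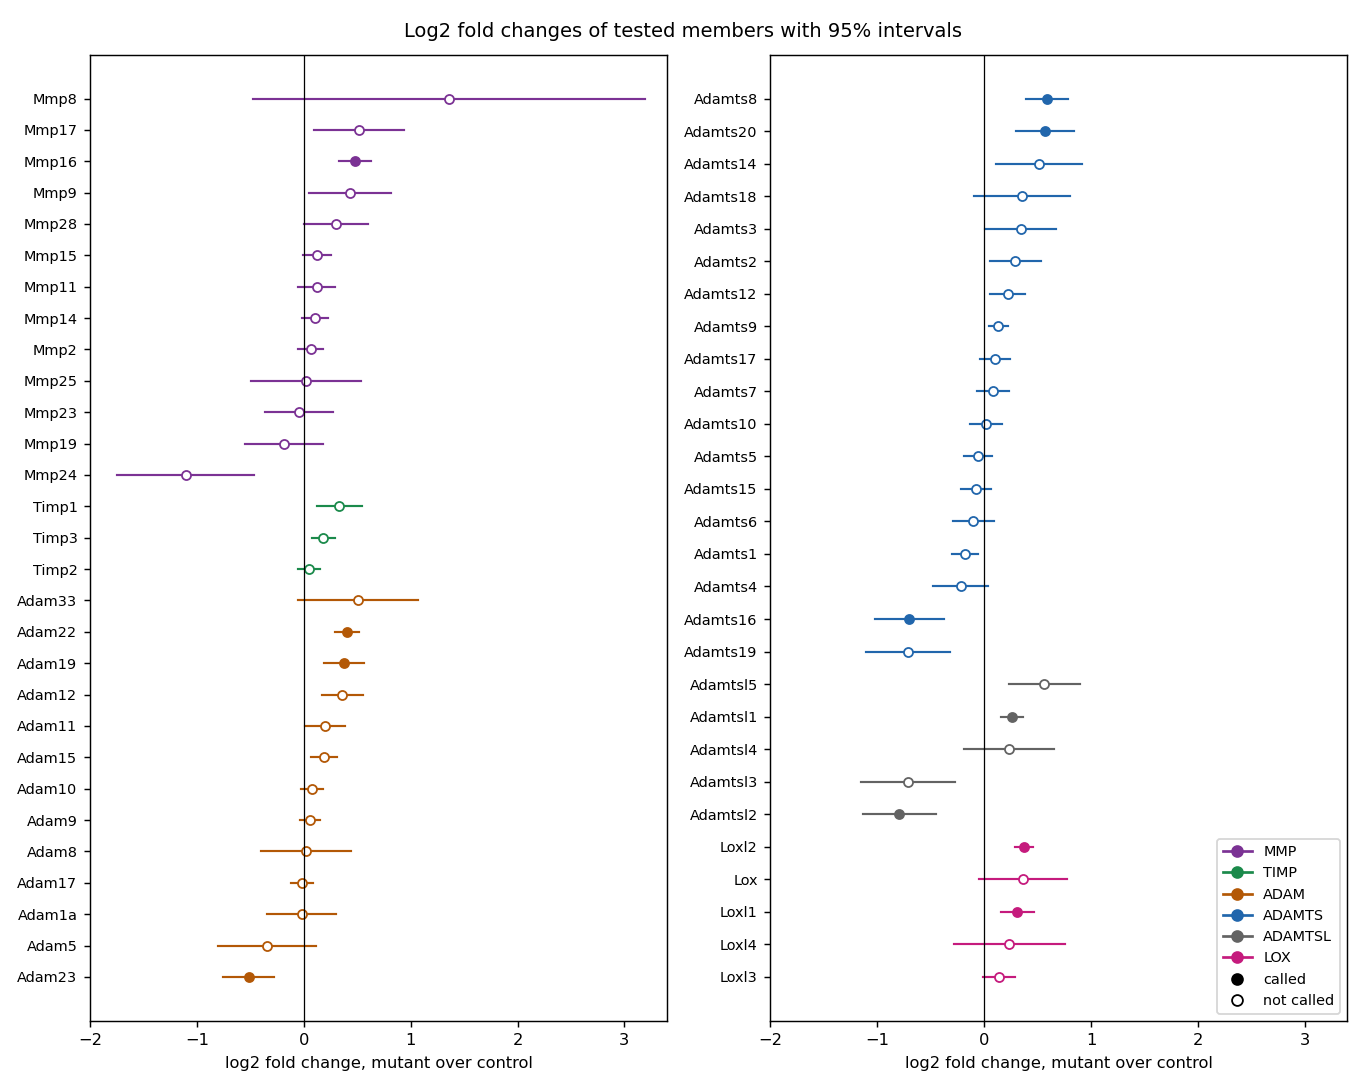
Log2 fold changes, mutant over control, of the 57 tested genes, by family and in falling order within each. Points are edgeR estimates, lines 95% normal intervals, and filled points were called at an adjusted p under 0.05. Most points lie to the right of 0, and the called ones lie between -0.80 and 0.59.

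The size of the called set depended on single pools, and so did the number of all genes called. Leaving out mutant pool 1, 2 or 3 left 5, 4 and 6 members called higher and 2, 1 and 0 called lower. Leaving out control pool 1, 2 or 3 left 4, 10 and 5 called higher and 1, 3 and 1 called lower. Across all genes, the fits without mutant pool 1, 2 or 3 called 355, 290 and 433 higher and 412, 358 and 343 lower. Those without control pool 1, 2 or 3 called 282, 696 and 382 higher and 347, 725 and 416 lower. With all pools, 539 genes were called higher and 628 lower. In the fit lacking mutant pool 3, where edgeR called 0 members lower, 7 were lower at an unadjusted p under 0.05. With all pools, the members called lower were 5 with DESeq2 and 3 with limma voom. Loxl2, Adam22, Mmp16 and Adamts8 were called under each of the 14 alternatives.

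**Figure D2:**
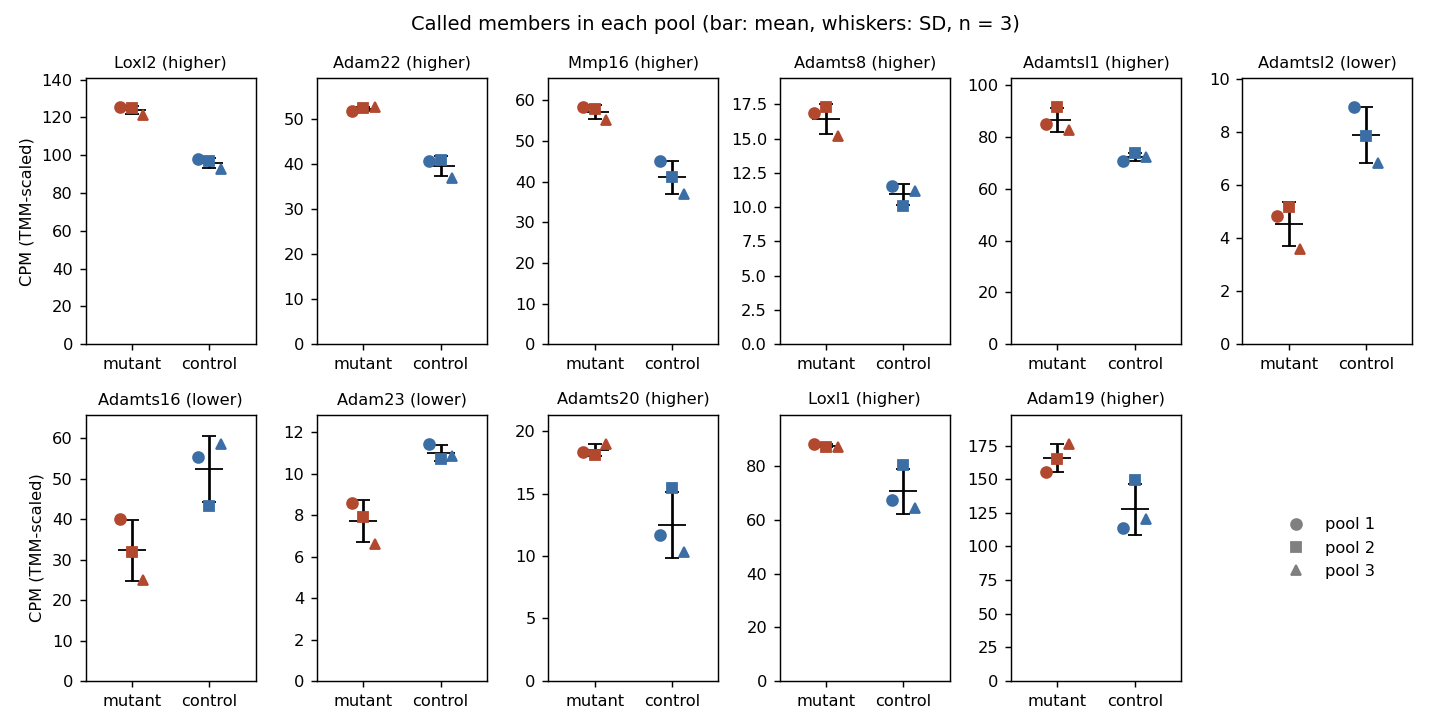
Level of the 11 called genes in each pool, in TMM-scaled CPM on axes from 0, mutants at left and controls at right. Bars are means and whiskers SDs over 3 pools, and marker shapes give the pool number. The mutant and control points do not overlap in any panel. Loxl2 lay between 121 and 126 CPM in mutants and between 92.9 and 98.0 CPM in controls.

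Among the lysyl oxidases, Loxl2 and Loxl1 were higher in mutants, and the other members had positive estimates that were not called. Loxl2 (chr14:69609068-69695834, GRCm38, plus strand) encodes an enzyme that cross-links collagens, including those of basement membranes. It stood at 126, 125 and 121 CPM in mutant pools 1 to 3 and at 98.0, 96.7 and 92.9 CPM in control pools 1 to 3. All mutant pools lay above all control pools, and the fold of 1.29 corresponded to a log2 fold change of 0.37 (SE 0.042, edgeR adjusted p = 0.00129). Over the alternatives its adjusted p ran from 2.8e-07 to 0.0127. An antisense gene, Gm27177, covers 301 exonic bases of Loxl2, and the strand setting of the counting is not known.

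Loxl1 (chr9:58287738-58313186, minus strand) encodes the lysyl oxidase of elastic fibres. Its values were 88.4, 87.3 and 87.2 CPM in mutants and 67.2, 80.3 and 64.3 CPM in controls. The groups did not overlap, although control pool 2 came close, and the fold was 1.24 (log2 0.31, SE 0.078, edgeR adjusted p = 0.0431). This call was lost with total-count scaling (edgeR adjusted p = 0.056) and whenever a pool other than control pool 2 was left out (up to 0.148). Dropping the pair of pools low in Xist gave 0.188.

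Lox, the founding member of the family, had 124, 86.8 and 61.8 CPM in mutants and 75.2, 62.2 and 74.5 CPM in controls. Mutant pool 1 was high and mutant pool 3 lay below every control pool, so the groups overlapped. The difference, 0.36 on the log2 scale with an SE of 0.209, did not pass the test (edgeR adjusted p = 0.38) and became 0.073 without mutant pool 1 and 0.58 without mutant pool 3. Loxl3 averaged 34.5 ± 1.87 CPM in mutants and 31.3 ± 2.42 CPM in controls, with SD and n = 3 each. Loxl4 had 28, 32 and 20 reads in mutants and 24, 24 and 20 reads in controls. Neither was called, at log2 0.14 (SE 0.076) for Loxl3 and 0.23 (SE 0.266) for Loxl4. Summed per kilobase of exon, the 5 genes reached 83.5, 76.1 and 69.7 CPM per kb in mutants and 61.7, 62.7 and 58.8 CPM per kb in controls. All 3 mutant sums lay above all 3 control sums.

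**Figure D3:**
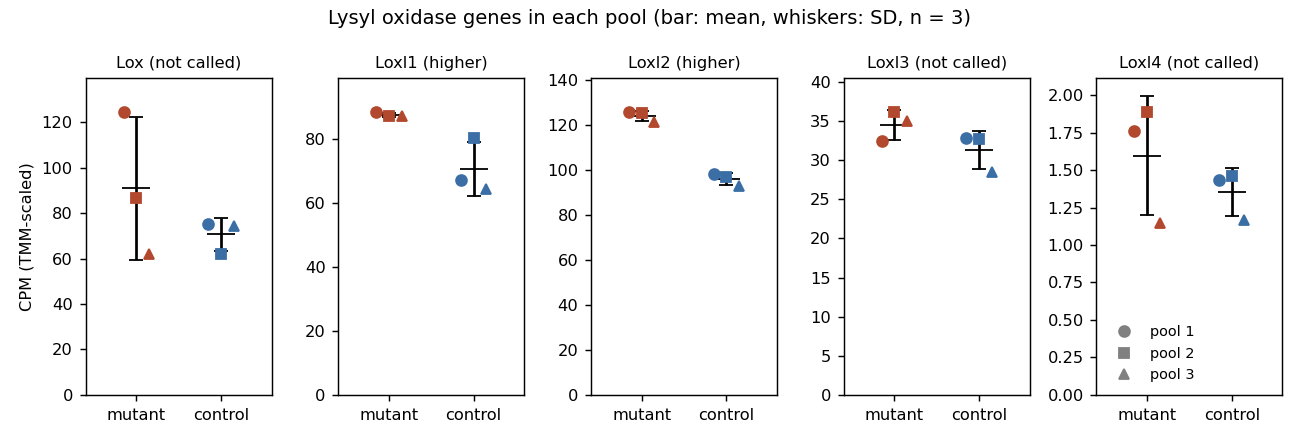
Level of the 5 lysyl oxidase genes in each pool, in TMM-scaled CPM on axes from 0, mutants at left. Bars are means, whiskers SDs over 3 pools, and marker shapes give the pool number. Loxl1 and Loxl2 show separate groups, while Lox spreads from 61.8 to 124 CPM within the mutants.

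Some genes for proteins that lysyl oxidases act on or bind were also higher. Of 19 tested elastic fibre and lysyl oxidase partner genes, 3 were called higher and 16 were not called, with a median log2 fold change of 0.21. Over all genes tested, 3.67% were called higher. Fbln2, encoding the matrix glycoprotein fibulin-2, stood at 171, 156 and 158 CPM in mutants and 122, 122 and 119 CPM in controls (log2 fold change 0.42, SE 0.046, edgeR adjusted p = 0.00106). The microfibril genes Fbn1 and Fbn2 had log2 fold changes of 0.41 (SE 0.065) and 0.29 (SE 0.07). Eln, encoding elastin, was not called (edgeR adjusted p = 0.531), and neither was the fibronectin gene Fn1 (edgeR adjusted p = 0.107).

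Fibrillar collagen genes, whose proteins lysyl oxidases cross-link, had 4 of 9 members called higher and 5 not called, with a median of 0.31. The share of all genes tested that were called higher was 3.67%. Col5a1 averaged 975.8 ± 51.1 CPM in mutants and 784 ± 41.3 CPM in controls, Col1a1 averaged 2246 ± 149 CPM in mutants and 1806 ± 116 CPM in controls (SD, n = 3 each). Their log2 fold changes were both 0.31, with SEs of 0.059 and 0.066, and that of Col5a2 was 0.25 (SE 0.054). Col11a1 was the remaining call, at 0.43 (SE 0.103). Col1a1 is also one of the mesenchyme markers.

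Among the MMPs, the surface-bound Mmp16 was higher in mutants, and the abundant Mmp2 and Mmp14 were not called. Mmp16 (chr4:17852893-18119145, plus strand) encodes a membrane-type MMP that can activate the MMP2 proenzyme. It had 58.4, 57.8 and 55.2 CPM in mutants and 45.1, 41.1 and 36.9 CPM in controls, with no overlap. The fold was 1.39 (log2 0.48, SE 0.075, edgeR adjusted p = 0.00588), and its adjusted p was at most 0.0297 over the alternatives. Of the 6 membrane-type genes, Mmp16 was called higher and the other 5 were not called.

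Mmp14, the main activator of MMP2 on the cell surface, stood at 281, 245 and 248 CPM in mutants and 237, 253 and 228 CPM in controls. Mmp2, gelatinase A, stood at 207, 189 and 202 CPM in mutants and 185, 206 and 181 CPM in controls. Both overlapped between groups, with log2 fold changes of 0.11 (95% interval -0.015 to 0.23) for Mmp14 and 0.062 (-0.052 to 0.18) for Mmp2. Mmp11, stromelysin 3, averaged 66.9 ± 2.61 CPM in mutants and 61.6 ± 7.93 CPM in controls (SD, n = 3 each) and was not called (log2 0.12, SE 0.087). The second gelatinase gene, Mmp9, had 7.73, 9.43 and 11.3 CPM in mutants and 6.69, 8.89 and 5.61 CPM in controls and was not called (log2 0.43, SE 0.196, edgeR adjusted p = 0.256).

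Mmp24, a membrane-type MMP studied mainly in the nervous system, was low, at 11, 17 and 8 reads in mutants and 25, 21 and 32 reads in controls. The groups did not overlap, but the gene was not called (log2 -1.11, SE 0.328, edgeR adjusted p = 0.0805). The protein-coding gene BC029722 on the opposite strand shares 637 exonic bases with it.

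The TIMPs were not called by edgeR, although 2 of the 3 tested genes were higher at an unadjusted p under 0.05. DESeq2 called 1 of them higher and limma voom called 0. Timp3, the matrix-bound inhibitor that also blocks ADAM17, had 256, 245 and 229 CPM in mutants and 220.3, 219 and 203 CPM in controls. All mutant pools were above all control pools (log2 0.18, SE 0.053, edgeR adjusted p = 0.0732). The DESeq2 Wald test called it higher (adjusted p = 0.0404). The Syn3 gene on the opposite strand shares 1733 exonic bases with Timp3.

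Timp1, which lies on the X chromosome, stood at 12.6, 12.0 and 12.4 CPM in mutants and 9.91, 8.71 and 10.7 CPM in controls. It too showed no overlap and no call (log2 0.33, SE 0.108, edgeR adjusted p = 0.105). Timp2, the inhibitor that bridges MMP14 and the MMP2 proenzyme, overlapped between groups at 185 ± 8.51 CPM in mutants and 179 ± 9.97 CPM in controls (SD, n = 3 each). Timp4 had 5, 2 and 4 reads in mutants and 3, 1 and 2 reads in controls and was too low to test.

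In the ADAM family, 2 genes were called higher, 1 lower and 10 not called of 13 tested. Called genes made up 23.1% of the 13, against 7.95% of all genes tested. Adam22 and Adam23 encode adhesion proteins without protease activity that bind LGI proteins in brain, and they differed in opposite directions. Adam22 (chr5:8072352-8368160, minus strand) had 51.7, 52.3 and 52.6 CPM in mutants and 40.6, 40.9 and 36.9 CPM in controls. The mutant pools were close together and above every control pool, with a fold of 1.32 (log2 0.40, SE 0.059, edgeR adjusted p = 0.00423; at most 0.0227 over the alternatives).

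Adam23 (chr1:63445891-63596276, plus strand) had 8.61, 7.89 and 6.64 CPM in mutants and 11.5, 10.7 and 10.9 CPM in controls. It fell in mutants without overlap (log2 -0.52, SE 0.123, edgeR adjusted p = 0.0361). Leaving out mutant pool 2 or 3, or control pool 1 or 3, ended the call (up to edgeR adjusted p = 0.117), as did dropping the pair of pools low in Xist (0.0576). Adam11, the third of this type, was not called at 32.7 ± 2.36 CPM in mutants and 28.5 ± 3.48 CPM in controls (SD, n = 3 each). Of 8 neuron and neural crest markers, 4 were called lower and 4 not called, with sums of 54.0 to 67.1 CPM in mutants and 76.2 to 128 CPM in controls. Their part in the values of Adam23 and Mmp24 was not tested.

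Adam19 (chr11:46055992-46147343, plus strand), encoding a protease that can release neuregulins, stood at 156, 165 and 176 CPM in mutants and 114, 149 and 120.2 CPM in controls. The gap to control pool 2 was narrow (log2 0.38, SE 0.095, edgeR adjusted p = 0.0461). The call was lost with total-count scaling (edgeR adjusted p = 0.0564) and whenever a pool other than control pool 2 was left out (up to 0.142). Dropping the pair of pools low in Xist gave 0.117. Antisense genes cover 587 and 480 exonic bases of Adam19. The related Adam12 had 122 ± 7.53 CPM in mutants and 95.2 ± 13.7 CPM in controls (SD, n = 3 each), with no overlap. It was not called (log2 0.36, SE 0.097, edgeR adjusted p = 0.0567) but the DESeq2 Wald test called it higher (adjusted p = 0.00305).

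The general sheddase genes were not called. Adam10, which cleaves Notch receptors and E-cadherin, stood at 364, 351 and 343 CPM in mutants and 350.3, 309.6 and 344 CPM in controls (log2 0.075, 95% interval -0.029 to 0.18). Adam17, which releases TNF and several ErbB ligands, stood at 121, 115 and 113 CPM in mutants and 122, 111 and 119.9 CPM in controls (log2 -0.016, -0.12 to 0.085). Both overlapped between groups. Of their partner genes, 8 were tested: 1 was called higher, 1 lower and 6 were not called. Tspan15, encoding a tetraspanin that binds ADAM10, had 58.2, 68.7 and 57.7 CPM in mutants and 32.2, 31.2 and 34.1 CPM in controls, a log2 fold change of 0.92 (SE 0.08, edgeR adjusted p = 0.000407). Tspan5, another ADAM10-binding tetraspanin, was lower at -0.29 (SE 0.072, edgeR adjusted p = 0.0443), a call that DESeq2 did not make. The ErbB ligands that ADAMs release were summed at 40.7 to 46.8 CPM in mutants and 46.1 to 46.7 CPM in controls, and none of the 5 tested was called by edgeR, DESeq2 or limma voom, with 1 higher and 1 lower at an unadjusted p under 0.05 by edgeR.

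The ADAMTS genes held 2 calls higher, 1 lower and 15 not called of 18 tested. Called genes made up 16.7% of the 18, against 7.95% of all genes tested. Adamts8 (chr9:30942562-30963838, plus strand) encodes a secreted protease of the group that cuts proteoglycans. Its values were 16.9, 17.3 and 15.2 CPM in mutants and 11.6, 10.1 and 11.2 CPM in controls, with no overlap. It rose in mutants (log2 0.59, SE 0.098, edgeR adjusted p = 0.00809), the largest rise among the called members in this fit, and its adjusted p was at most 0.0442 over the alternatives. The antisense gene Gm29724 shares 489 exonic bases with it.

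Adamts20 (chr15:94270163-94465418, minus strand), mutated in belted mice and known to cut versican, stood at 18.4, 18.1 and 19.0 CPM in mutants and 11.6, 15.5 and 10.3 CPM in controls. It rose without overlap (log2 0.57, SE 0.139, edgeR adjusted p = 0.0399). This call, too, was lost without each pool other than control pool 2 (at most 0.136, without control pool 1) and without both pools low in Xist (0.148).

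Adamts16 (chr13:70727802-70841811, minus strand), encoding a secreted ADAMTS protease, had 40.0, 31.9 and 25.1 CPM in mutants and 55.3, 43.2 and 58.7 CPM in controls. It fell without overlap (log2 -0.70, SE 0.164, edgeR adjusted p = 0.0339), and leaving out mutant pool 2 or 3, or control pool 1 or 3, ended the call (up to edgeR adjusted p = 0.112). Adamts19, another family member, had 11.1, 9.66 and 8.52 CPM in mutants and 11.8, 15.4 and 20.8 CPM in controls. It was not called (log2 -0.71, SE 0.199, edgeR adjusted p = 0.0645), but DESeq2 called it lower (adjusted p = 0.00599).

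Adamts1 had the highest level of any member per exon length, at 117 CPM per kb in mutants and 133 CPM per kb in controls. The gene, encoding a protease of versican and aggrecan, stood at 566, 662 and 635 CPM in mutants and 699, 703 and 710.5 CPM in controls. No mutant pool reached the control range, a log2 difference of -0.18 (SE 0.060). The edgeR test did not call it (adjusted p = 0.117), and the DESeq2 Wald test called it lower (adjusted p = 0.0327). Adamts9, which also cuts versican, had 312, 335 and 309.99 CPM in mutants and 295, 280.3 and 298 CPM in controls. Its groups did not overlap either, in the other direction, and it was not called (log2 0.13, SE 0.045, edgeR adjusted p = 0.13). The procollagen N-proteinase genes Adamts2, Adamts3 and Adamts14 had log2 fold changes of 0.29 (SE 0.121), 0.34 (SE 0.169) and 0.51 (SE 0.203), and none was called by edgeR, DESeq2 or limma voom.

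Proteoglycans cut by such enzymes, and their partners, were called in both directions. Of 9 tested, 2 were higher, 2 lower and 5 not called, while 3.67% of all genes tested were called higher and 4.28% lower. Acan, encoding aggrecan, had 68.9, 72.1 and 60.7 CPM in mutants and 114, 110.2 and 115 CPM in controls, a log2 fold change of -0.75 (SE 0.064, edgeR adjusted p = 0.000404). The small leucine-rich proteoglycan genes Fmod and Bgn rose by 0.59 (SE 0.096) and 0.22 (SE 0.047) on the log2 scale. The second call lower was the neural proteoglycan gene Ncan, at -1.03 (SE 0.243). Vcan, encoding versican, was not called (edgeR adjusted p = 0.0659).

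Of the 5 ADAMTS-like genes, 1 was called higher, 1 lower and 3 were not called. Adamtsl1 (chr4:85514172-86428385, plus strand), encoding the matrix protein punctin, stood at 85.2, 91.7 and 82.9 CPM in mutants and 70.9, 73.9 and 72.3 CPM in controls. It rose by 0.26 on the log2 scale (SE 0.052, edgeR adjusted p = 0.0184), and this call ended when mutant pool 2 or control pool 1 was left out (up to edgeR adjusted p = 0.0796) or the pair of pools low in Xist (0.0712). Adamtsl2 (chr2:27079379-27108981, plus strand), whose protein binds fibrillin-1 and latent TGF-beta binding protein, had 4.84, 5.18 and 3.60 CPM in mutants and 8.96, 7.86 and 6.84 CPM in controls. It had the lowest log2 fold change among called members, -0.80 (SE 0.175, edgeR adjusted p = 0.0259). Leaving out mutant pool 1 or 3, or control pool 1, ended that call (up to edgeR adjusted p = 0.098).

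Adamtsl4 overlapped between groups and was not called (log2 0.23, SE 0.214, edgeR adjusted p = 0.615). Adamtsl5 and Adamtsl3 were not called either, though their groups did not overlap. Adamtsl5 averaged 9.96 ± 1.99 CPM in mutants and 6.73 ± 0.825 CPM in controls (SD, n = 3 each), and Adamtsl3 2.02 ± 0.472 CPM in mutants and 3.31 ± 0.397 CPM in controls (SD, n = 3 each). Their log2 fold changes were 0.56 (SE 0.17) and -0.71 (SE 0.225). Adamtsl5 was called without mutant pool 3 (edgeR adjusted p = 0.0368).

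Other regulators of these proteases were checked from lists of partner genes. Of 12 membrane and matrix regulators, 3 were called higher and 9 not called, with a median of 0.20. Among all genes tested, 3.67% were called higher. The calls were Thbs1 (0.40, SE 0.074), encoding thrombospondin-1, Plat (0.28, SE 0.053), encoding tissue plasminogen activator, and Sparc (0.25, SE 0.061), encoding a collagen-binding matrix protein. Reck, encoding a membrane inhibitor of MMPs, was not called (edgeR adjusted p = 0.974). Of the 4 proprotein convertases that activate proenzymes, Pcsk6 was lower at -0.56 (SE 0.108), with 18.8 ± 2.34 CPM in mutants and 27.6 ± 2.64 CPM in controls (SD, n = 3 each), and the other 3, Furin among them, were not called. Of 5 tested astacin proteinases and enhancers, Mep1a, encoding meprin alpha, was called lower at 0.275 ± 0.0791 CPM in mutants and 1.99 ± 0.363 CPM in controls (SD, n = 3 each). Mep1a had 3, 5 and 6 reads in mutants and 27, 33 and 40 reads in controls. It passed the filter on low counts through the control pools alone. Bmp1, which cleaves procollagens and activates lysyl oxidase, was not called (edgeR adjusted p = 0.347).

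Levels could be set beside each other only per kilobase of exon. On that scale the order was led by Adamts1, followed by Adam10, Mmp2, Timp2, Mmp14, Timp3, Loxl1, Mmp11, Adam19 and Loxl2. Adam10 stood at 71.7 CPM per kb in mutants and 68.1 in controls, Mmp2 at 59.2 in mutants and 56.7 in controls and Timp2 at 47.5 in mutants and 45.9 in controls. Loxl2 stood at 22.9 CPM per kb in mutants and 17.7 in controls. Sums over all 4 TIMP genes were 88.3 to 95.7 CPM per kb in mutants and 79.9 to 85.6 in controls. Sums over all 32 ADAM genes were 160.2 to 164 in mutants and 146 to 149 in controls. Adam10, which was not called, was the largest part of the ADAM sums. ADAMTS-like sums were 9.31 to 11.2 in mutants and 8.99 to 9.07 in controls. The groups did not overlap in any of these families. The ADAMTS sums, 210.2 to 232 in mutants and 231 to 237 in controls, overlapped, as did the MMP sums, 152 to 163 in mutants and 138 to 156 in controls.

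**Figure D4:**
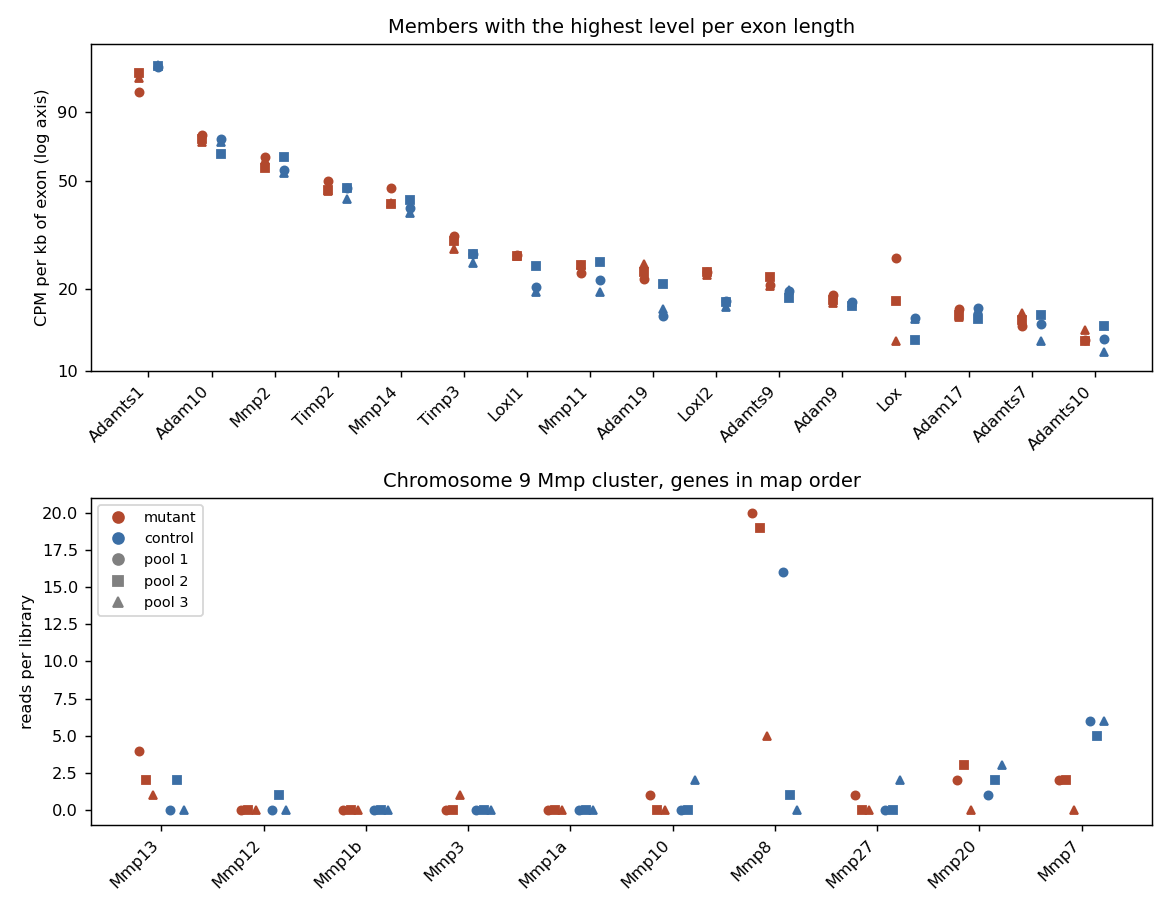
Upper panel: level per kilobase of exon, on a log axis, of the 16 members highest on that scale, mutants left of controls and shapes for pool numbers. Lower panel: reads per library of the 10 Mmp genes in the chromosome 9 cluster, in map order. Adamts1 averages 117 CPM per kb in mutants and 133 CPM per kb in controls, while no gene of the cluster exceeds 20 reads.

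At the other end, 31 members were too low to test, of which 14 had no read in any library and 17 had a few, with at most 15 reads in a library. Of these 31, 19 were ADAM genes, 12 of them without a read. A count of 0 allows up to 3 reads in a library, by counting error alone. Close copies such as Adam1a with Adam1b and Mmp1a with Mmp1b can also lose or share reads. Adam28 was seen almost only in control pool 2, with 15 reads there and at most 2 in any other pool.

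Of the 10 MMP genes too low to test, 9 lay together. The 10 Mmp genes on chromosome 9, from 7272514 to 7699585 (GRCm38, 427 kb), held 1a, 1b, 3, 7, 8, 10, 12, 13, 20 and 27, and Mmp8 alone passed the filter. Mmp7, matrilysin, had 2, 2 and 0 reads in mutants and 6, 5 and 6 reads in controls and was not tested. Mmp8, the collagenase of neutrophil granules, had 20, 19 and 5 reads in mutants and 16, 1 and 0 reads in controls. The groups overlapped through control pool 1, and the gene was not called (log2 1.36, SE 0.936, edgeR adjusted p = 0.479). With so few reads the estimate for Mmp8 moved widely, to 4.57 without control pool 1 (edgeR adjusted p = 0.0721), 0.77 without control pool 3 and 0.44 without the pair of pools low in Xist.

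Neutrophil markers were set beside Mmp8. Summed over 10 markers they stood at 181, 119 and 61.4 CPM in mutants and 71.5, 5.73 and 10.3 CPM in controls. Among them 4 were called higher and 6 not called. The called Mpo, Elane, Prtn3 and Ctsg were low in every control pool, with Mpo at 2.15, 2.25 and 2.45 CPM. Elane, with 4, 3 and 4 control reads, and Ctsg, with 0, 2 and 0, passed the filter on low counts through the mutant pools alone. The uncalled S100a8, S100a9, Ltf, Ngp, Camp and Lcn2 were highest among controls in pool 1, as Mmp8 was. S100a9 had 20.1, 0.426 and 2.40 CPM in control pools 1 to 3. The pools with most Mmp8 reads, mutant pools 1 and 2 and control pool 1, were also the 3 with the highest marker sums. Their part in the Mmp8 values was not tested.

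Promoters were compared because the near-silent cluster and the expressed members could be set side by side in sequence. RefSeq windows of 300 bases (GRCm38.p6, 250 before to 50 after a start) were matched for 53 members, among them 33 of the 57 tested. Of the called members, Loxl1, Loxl2, Mmp16, Adamts8, Adamts16 and Adamtsl1 were not matched. Each was searched for TGANTCA and for TATAAA, the TATA box, on both strands. TGANTCA allows any middle base, and so is a looser pattern than the AP-1 element it includes. Of 12 windows of the cluster, 8 held both motifs, against 1.54% of all 32851 promoter windows. TATAAA was found in 9 of these 12. In the 36 windows of tested members, Mmp8 included, TGANTCA was found in 1 (a start of Adam19), TATAAA in 3 and both together in 0. The 3 with TATAAA belonged to Adamts1, Adamtsl2 and Mmp8. Of all windows, 7.81% held TGANTCA and 13.6% TATAAA. CG dinucleotides numbered 1 in the median cluster window, 22 in the median window of tested members and 7 in the median of all windows. The 11 windows of untested members outside the cluster also had a median of 1 CG, with TGANTCA in 27.3%, TATAAA in 36.4% and both in 9.09% of them. These matches describe sequence and show no binding, and no match says only that the letters are not in the window.

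For this comparison 3 promoters of the cluster with both motifs are given with those of the abundant Timp3 and Mmp14, each from 110 bases before to 10 bases after the start and written 5′ to 3′ on the gene's own plus strand. In the first 3, capitals mark TGANTCA and TATAAA, whose first bases lie 46 and 7 bases before the start in Mmp3 (chr9:7445712-7445831), 63 and 29 in Mmp10 (chr9:7502232-7502351) and 35 and 16 in Mmp13 (chr9:7272404-7272523). In Timp3 (chr10:86300302-86300421) and Mmp14 (chr14:54431488-54431607) capitals mark CG dinucleotides, 14 and 5 of them in the stretch.
Mmp3: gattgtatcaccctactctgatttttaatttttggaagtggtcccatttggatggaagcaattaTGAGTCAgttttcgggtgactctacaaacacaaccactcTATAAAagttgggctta
Mmp10: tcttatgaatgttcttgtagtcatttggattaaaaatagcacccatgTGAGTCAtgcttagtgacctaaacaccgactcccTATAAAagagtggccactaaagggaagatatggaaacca
Mmp13: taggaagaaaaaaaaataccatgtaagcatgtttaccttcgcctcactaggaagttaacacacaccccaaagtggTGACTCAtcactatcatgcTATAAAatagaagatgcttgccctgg
Timp3: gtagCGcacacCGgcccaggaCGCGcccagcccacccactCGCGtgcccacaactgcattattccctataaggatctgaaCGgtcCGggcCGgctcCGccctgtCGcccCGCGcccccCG
Mmp14: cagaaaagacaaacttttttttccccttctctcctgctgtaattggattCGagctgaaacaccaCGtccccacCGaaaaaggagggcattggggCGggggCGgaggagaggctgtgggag
Mmp3 had 1 read in mutant pool 3 and no read elsewhere. Mmp10 had 1, 0 and 0 reads in mutants and 0, 0 and 2 reads in controls. Mmp13 had 4, 2 and 1 reads in mutants and 0, 2 and 0 reads in controls.

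Markers of other cell types gave the remaining context. Of 8 endocrine markers, 5 were called lower and 3 not called, with sums of 1356 to 1456 CPM in mutants and 1882 to 2510 CPM in controls. Of 8 erythroid markers, 4 were called higher and 4 not called, and Ppbp was the call, higher, among 5 tested megakaryocyte and platelet markers. Acinar markers held 1 call lower of 8, smooth muscle and pericyte markers 1 higher of 8 (Cspg4), and mesothelial markers 1 higher of 4 tested (Krt19, which duct cells also express). Smooth muscle and pericyte sums, 476 to 512 CPM in mutants and 373 to 612 CPM in controls, overlapped. In control pools 1 to 3, Myh11 stood at 4.36, 73.6 and 2.16 CPM and Acta2 at 23.4, 94.5 and 22.3 CPM. Cnn1 was also highest in control pool 2, while Rgs5 and Des did not stand out there. The part of this in other values of control pool 2 was not tested. No endothelial or macrophage marker was called by edgeR, DESeq2 or limma voom, with 4 of 8 and 1 of 10 higher at an unadjusted p under 0.05 by edgeR. Endothelial sums of 690 to 871 CPM in mutants and 617 to 696 CPM in controls overlapped, as did macrophage sums of 273 to 313 CPM in mutants and 274 to 316 CPM in controls. No marker in any list was at 0 in all libraries.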

How the data were processed

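Messenger RNA of 6 libraries, 3 mutant and 3 control, was analysed. The deposited files hold whole-number read counts per gene symbol, which the authors did not normalize, per the file headers and the values. Per the submitters' processing notes the tools included STAR, cutadapt 1.13, DESeq2 and HTSeq 0.6.1p1, and the build was mm10. Neither their roles nor the annotation or strand setting is stated there, so a gene and an antisense partner cannot be separated.

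The comparison of mutant with control pools used edgeR 4.0.16 (R 4.3.3): filterByExpr with a minimum count of 10, TMM scaling, the quasi-likelihood F test with genotype as its term, and Benjamini-Hochberg adjustment over all 14687 genes. Called means an adjusted p under 0.05. Each SE was taken as the size of the log2 fold change divided by the root of its F, with normal 95% intervals. CPM values use TMM-scaled totals. P-values set the difference between groups against the spread between pools, and the spread between single animals was not measured. The test was checked on simulated counts. It recovered 49 of 82 genes changed by 0.5 on the log2 scale, 43 of 56 changed by 1 and 60 of 60 changed by 2. A gene with a small change can therefore go uncalled. It also called 11 unchanged genes, so a call can be false. Exon lengths and positions come from GENCODE M21 on GRCm38, matched by symbol for 88 of 88 members, and promoters from RefSeq.

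The members and lists were chosen with earlier results of these data known. Named were all called members, the 10 highest per exon length, 17 fixed members, members whose call turned with scaling, filter or tool, up to 6 uncalled members without overlap, and up to 3 called genes per partner list; other genes named, such as Mmp8, Mmp7, Adamtsl4, Adam11, Adam28, Adamts2, Adamts3, Adamts14, Col11a1, Ncan and the uncalled partner genes, were chosen after their values were seen. Alternatives were DESeq2 size factors, total-count scaling, no filter, at least 1 CPM in 3 libraries, DESeq2 1.42.0, limma 3.58.1 voom, the replicate number as a block, each library left out, and both libraries under 10 CPM of Xist left out. Counts of partner genes under the alternatives were added after seeing the data. Equal replicate numbers were not taken to pair the pools, and the labels do not state a pairing.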

Additional observations from a re-analysis of the deposited data

How the results depend on the processing

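The counts of calls depended on which pools entered. With each pool left out in turn, all genes called ran from 629 to 1421, members called higher from 4 to 10, members called lower from 0 to 3 and partner genes called from 8 to 20, against 1167, 8, 3 and 18 with all pools. The median log2 fold change of members ran from 0.12 to 0.17 with pools left out and was 0.10 with total-count scaling, where the median of all genes was -0.026. DESeq2 called 5 members lower. Without the pools under 10 CPM of Xist, 665 genes, 4 members higher and 9 partner genes were called, the log2 fold change of Mmp2 was -0.0051 and that of Timp2 -0.036. The log2 fold change of Adam17 ran from -0.060 to 0.010 with pools left out. The cause was not tested, other than that fits without pools use fewer samples. The other tested members named by the rule kept their direction under all 14 alternatives, and Timp4, too low to test, was fitted in 1 of them alone. With total-count scaling all genes split into 463 higher and 717 lower, and with the main scaling into 539 higher and 628 lower.

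The replicate number as a block gave 1138 genes called, 9 members higher and 3 lower, with Timp3 added (edgeR adjusted p = 0.0343). Same-numbered pools correlated at 0.14, 0.10 and -0.05 in their deviations from the group means. Pools with different numbers ran from -0.23 to 0.16, so the numbers were not taken as pairs. With 3 pools per group these values cannot settle whether a pairing exists. Members near 1 CPM, such as Mmp24, rest on few reads and have wide intervals.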
